A study of Arabidopsis thaliana with 17 samples.

Results

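The genes described here are 10 of the 28642 in the deposited table: the danger peptide precursors PROPEP1, PROPEP2 and PROPEP3, their receptors PEPR1 and PEPR2, the co-receptor BAK1, the receptors FLS2, EFR and CERK1 for microbial patterns, and the cytoplasmic kinase BIK1. They were chosen by name for their role at the cell surface and not from a threshold on these values, although earlier results of these data were known when they were chosen. The libraries come from Arabidopsis thaliana hypocotyls grown in darkness, cut, and then kept in darkness on MS-0 medium for 0, 1, 3, 6, 12 or 24 h, in a study of gene expression while callus forms at the wound. There were 3 libraries at each of 0, 1, 3, 6 and 12 h and 2 at 24 h, 17 in all. The labels name no genotype, accession, age or number of seedlings per library, and all groups, 0 h included, are labelled as wounded. No uncut tissue kept for the same hours is among them, so time since the cut cannot be told apart from time on the plate.

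Danger peptides of this family are cut from longer precursors when plant cells are damaged and then act on neighbouring cells. PEPR1 and PEPR2 are leucine-rich repeat receptor kinases that bind the peptides, recruit BAK1 and signal through BIK1. FLS2 binds a stretch of bacterial flagellin and EFR a stretch of a bacterial elongation factor, and both use the same co-receptor and the same kinase, whereas CERK1 carries LysM domains and serves in the detection of chitin.

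Depth was uneven. Mapped reads, recovered from the steps of the low RPKM values, were 20740957 in 0 h replicate 1, 11760741 and 11736568 in the 24 h libraries and between 7717255 and 7872179 in the other 14. At 1 kb of transcript, 3 reads correspond to between 0.145 and 0.389 RPKM (reads scaled to transcript length and library depth). Markers of pollen (VGD1) were at 0 in every library, of root hairs (COBL9) at most 0.356 and of seeds (CRA1) at most 3.98 RPKM, while those of phloem (SUC2) and xylem (XCP1) were present at every time, SUC2 at group means of 39.5 to 55.6 RPKM and XCP1 at 147 to 178 RPKM up to 12 h and 63.9 RPKM at 24 h. EXPA8, taken as a marker of elongating hypocotyl, had a mean of 7.46 RPKM at 0 h, with libraries from 0 to 12.2, and of 1.28 RPKM at 1 h and at most 0.616 RPKM later. The epidermal marker ATML1 went from a mean of 7.57 RPKM at 0 h to 1.15 RPKM at 24 h, and the leaf genes RBCS1A and CAB1 reached 96.2 and 89.4 RPKM in replicate 1 of 12 h against means of at most 2.32 and 11.0 RPKM at the other times. The part of these shifts in the results below was not tested. Without 12 h replicate 1 the counts of the 10 genes called higher than at 0 h were the same at 1, 3 and 6 h and went from 5 to 4 at 12 h and at 24 h, where BAK1 (limma adjusted p = 0.0702) and PEPR1 (0.0549) were no longer called. In such bulk tissue, more RNA per cell and more cells of a type cannot be told apart.

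The 3 precursor genes lie side by side on the plus strand of chromosome 5, PROPEP2 (AT5G64890) at chr5:25934568-25935612, PROPEP1 (AT5G64900) at chr5:25937078-25938176 and PROPEP3 (AT5G64905) at chr5:25939562-25940080 (TAIR10.1, RefSeq annotation), a span of 5513 bases that holds no other gene of the table. Their coding sequences have 279 (PROPEP1), 330 (PROPEP2) and 291 (PROPEP3) bases. The active peptide lies towards the end of each precursor, so the last 72 coding bases, stop codon included, are shown, with a shared block of 27 bases in capitals.
PROPEP1: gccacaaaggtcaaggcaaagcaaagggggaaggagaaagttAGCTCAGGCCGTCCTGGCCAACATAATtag
PROPEP2: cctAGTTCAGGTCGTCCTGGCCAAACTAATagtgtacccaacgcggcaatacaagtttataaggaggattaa
PROPEP3: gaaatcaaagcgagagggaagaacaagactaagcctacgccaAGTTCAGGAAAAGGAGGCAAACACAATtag
The block of PROPEP1 and that of PROPEP2 were identical at 23 of 27 bases (85.2%), PROPEP1 and PROPEP3 at 17 (63%) and PROPEP2 and PROPEP3 at 16 (59.3%). Each block was located by its opening letters, AGCTCAGG or AGTTCAGG. Agreement at those letters, apart from the C or T, was therefore set by the search. In PROPEP1 and PROPEP3 the block runs up to the stop codon, and in PROPEP2 another 13 codons follow it.

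The 300 bases before the annotated start of the peptide and peptide-receptor genes are shown because these 5 genes had the highest ratios of peak to 0 h level. Capitals mark W-box letters, TTGACC or TTGACT on either strand, the core bound by WRKY transcription factors, which rise in many wound and immune responses. The windows are chr5:25936778-25937077 for PROPEP1, chr5:25934268-25934567 for PROPEP2, chr5:25939262-25939561 for PROPEP3, chr1:27483940-27484239 for PEPR1 and chr1:6106023-6106322 for PEPR2, all on the plus strand of TAIR10.1.
PROPEP1: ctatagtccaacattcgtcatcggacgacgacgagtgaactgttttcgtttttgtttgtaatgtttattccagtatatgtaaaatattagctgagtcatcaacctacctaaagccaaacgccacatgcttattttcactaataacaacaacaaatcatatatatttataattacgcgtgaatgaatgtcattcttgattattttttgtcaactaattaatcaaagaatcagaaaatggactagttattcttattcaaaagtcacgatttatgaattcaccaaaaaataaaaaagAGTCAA
PROPEP2: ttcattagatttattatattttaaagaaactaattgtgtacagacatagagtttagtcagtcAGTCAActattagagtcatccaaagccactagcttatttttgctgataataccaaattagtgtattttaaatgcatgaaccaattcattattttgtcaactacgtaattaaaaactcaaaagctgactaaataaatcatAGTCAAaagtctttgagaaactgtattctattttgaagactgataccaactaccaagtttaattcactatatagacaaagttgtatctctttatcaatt
PROPEP3: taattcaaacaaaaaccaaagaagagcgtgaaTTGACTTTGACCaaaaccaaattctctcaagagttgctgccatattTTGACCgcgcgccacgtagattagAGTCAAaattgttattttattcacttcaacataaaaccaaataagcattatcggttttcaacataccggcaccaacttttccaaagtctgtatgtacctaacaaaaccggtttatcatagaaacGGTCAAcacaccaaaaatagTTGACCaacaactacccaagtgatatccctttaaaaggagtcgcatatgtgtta
PEPR1: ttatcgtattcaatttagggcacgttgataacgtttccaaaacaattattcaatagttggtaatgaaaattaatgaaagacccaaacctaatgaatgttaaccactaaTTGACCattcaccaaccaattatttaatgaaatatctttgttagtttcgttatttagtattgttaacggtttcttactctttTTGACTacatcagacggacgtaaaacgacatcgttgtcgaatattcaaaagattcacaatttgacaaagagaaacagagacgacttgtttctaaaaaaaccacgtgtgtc
PEPR2: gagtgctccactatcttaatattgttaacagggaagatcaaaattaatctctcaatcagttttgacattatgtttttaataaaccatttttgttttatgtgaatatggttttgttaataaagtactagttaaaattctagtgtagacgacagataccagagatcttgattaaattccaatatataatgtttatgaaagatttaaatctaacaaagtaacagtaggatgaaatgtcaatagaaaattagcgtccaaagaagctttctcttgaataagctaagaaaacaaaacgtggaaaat
PROPEP3 had 6 W-box matches in its window, PROPEP2 and PEPR1 had 2, PROPEP1 had 1, 6 bases before the start, and PEPR2 had 0. Among the windows of the remaining genes, BAK1 had 2 matches, FLS2, BIK1 and CERK1 had 1 each and EFR had 0. Of 28008 annotated promoters of the same length, 32.3% held at least 1 match, 7.8% at least 2 and 0.00714%, which is 2 promoters, at least 6. The G-box CACGTG was found in 7.07% of those promoters and, among the 10 genes, in that of PEPR1. The GCC-box GCCGCC was found in 2.3% and in none of the 10. These are matches of letters and not evidence of binding.

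All 10 genes rose within 1 h of cutting and were still higher at 3 h, and none was called lower than at 0 h at any later time. EFR, PROPEP2 and PROPEP3 met the filter of 1 RPKM in 2 libraries only with times after 0 h. A lower call was hardly open to these genes. The calls come from a limma fit on log2(RPKM + 1) with Benjamini-Hochberg adjustment over 19656 tested genes, at an adjusted p under 0.05. Higher levels than at 0 h were called for 10 of 10 at 1 h, where 18.2% of all tested genes were called higher, for 10 at 3 h (27.6%), for 9 at 6 h (30.2%), for 5 at 12 h (34.4%) and for 5 at 24 h (36.2%). The median log2 change of the 10 over these 5 comparisons was 1.80, 2.47, 1.75, 0.39 and 0.42 in that order. Over all tested genes it was -0.36, -0.12, -0.07, 0.06 and 0.14, so that against that median each 1 h change below stood 0.36 higher. After centring each library on its median, the shares of all tested genes called higher and lower were 25% and 33.9% at 1 h and 29.8% and 28.5% at 24 h, against 54.7% and 23.2% lower without centring. With it the 10 genes were called higher as often at 1 and 3 h, and 10, 4 and 4 of them at 6, 12 and 24 h. An F test over the 5 times called all 10 genes, as it did 93.2% of tested genes. Every 1 h library lay above every 0 h library in 18.4% of tested genes and below in 53.8%. At 3 h these shares were 29.6% and 40.6%, at 12 h 37.0% and 28.9% and at 24 h 45.7% and 29.0%. All 10 genes lay above in this way at 1, 3 and 6 h, and 6 of them at 12 h and at 24 h.

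**Figure D1:**
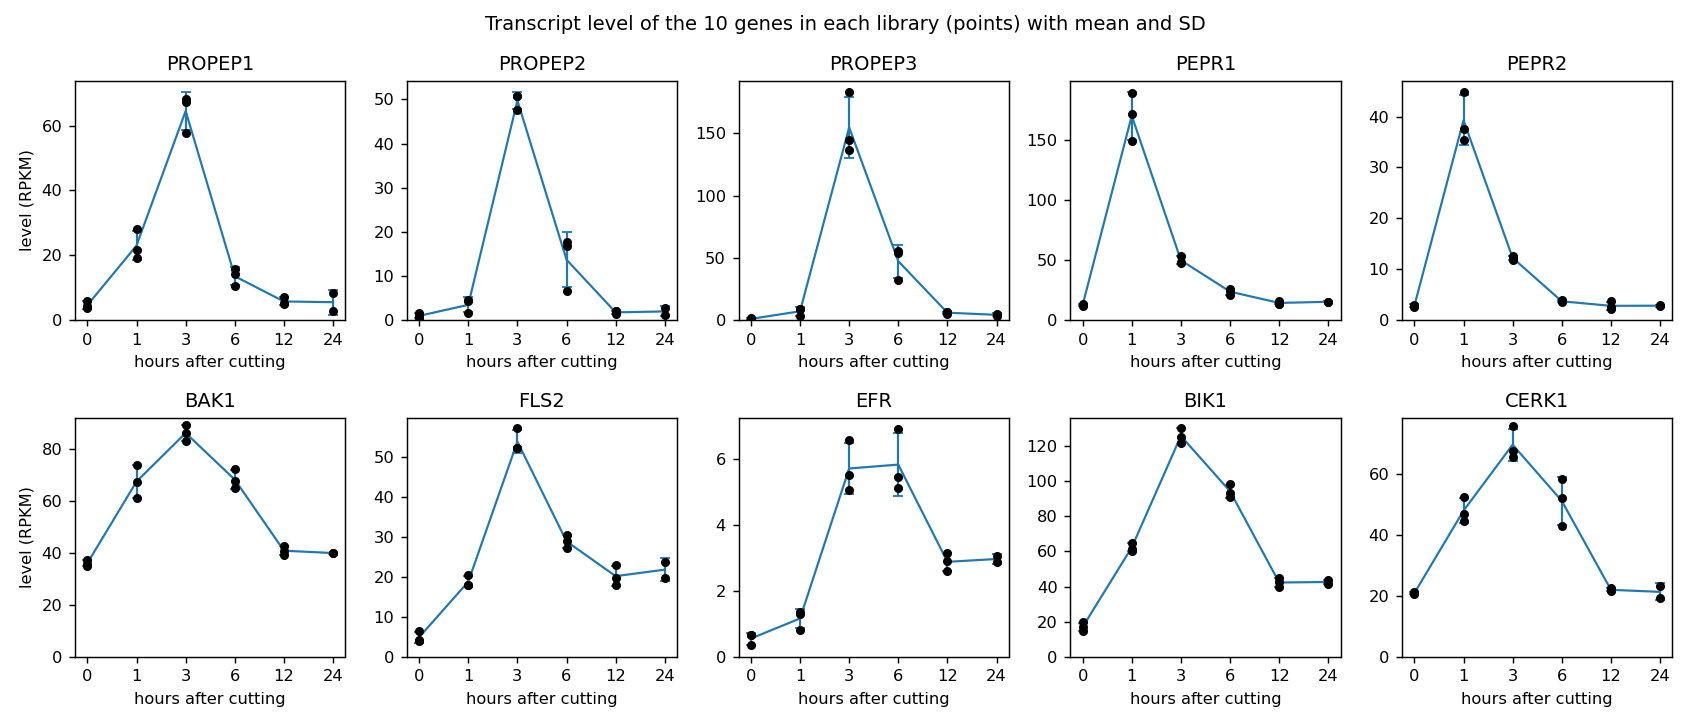
Level of each of the 10 genes (RPKM, axis from 0, its own scale in each panel) against hours after cutting, with the 6 time points evenly spaced; points are libraries, the line joins group means and bars are the SD. PEPR1 and PEPR2 stand highest at 1 h, at means of 170.1 and 39.3 RPKM, and 7 of the other 8 genes at 3 h, with EFR level between 3 and 6 h.

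Among the ligand precursors, PROPEP3 made the largest change of the 10 genes. It stood at 0.496, 1.84 and 0.524 RPKM in the 0 h libraries, which is 5, 7 and 2 reads, and at 9.07, 9.24 and 2.92 RPKM at 1 h. At 3 h it reached 136, 183 and 145 RPKM, from 518, 698 and 552 reads. Every library at 1 h and 3 h was above every 0 h library, and the mean at 3 h, 155 ± 24.7 RPKM (SD, n = 3), was 163 times that at 0 h, a ratio that rests on the few reads of the 0 h libraries. The log2 change was 1.99 (SE 0.35, limma adjusted p = 0.000139) at 1 h and 6.37 (SE 0.35, adjusted p = 7.54e-10) at 3 h. PROPEP3 then stood at 54.2, 55.4 and 32.2 RPKM at 6 h, at 6.53, 6.29 and 4.98 RPKM at 12 h and at 3.32 and 5.08 RPKM at 24 h. It was the precursor that stayed above its starting level, by 1.89 (adjusted p = 0.000274) at 12 h and by 1.46 (SE 0.39, adjusted p = 0.0049) at 24 h on the log2 scale. Without 24 h replicate 2 the last of these was no longer called (log2 change 1.22, adjusted p = 0.0594).

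PROPEP2 stood at 0.908, 1.53 and 0.436 RPKM at 0 h, from 11, 7 and 2 reads, at 4.22, 4.61 and 1.55 RPKM at 1 h and at 50.9, 50.8 and 47.6 RPKM at 3 h. Its lowest 1 h library only just cleared the highest 0 h library, and the 3 h libraries lay far above both groups. The log2 change was 1.14 (SE 0.35, limma adjusted p = 0.00931) at 1 h, 4.73 (adjusted p = 1.59e-08) at 3 h and 2.84 (adjusted p = 4.46e-06) at 6 h. At 6 h its libraries were at 17.7, 16.8 and 6.58 RPKM, and at 12 h and 24 h they overlapped those of 0 h, at 1.96, 1.96 and 1.31 RPKM and at 1.16 and 2.77 RPKM. In PROPEP1, PROPEP2 and PROPEP3 alike, replicate 3 was the lowest library at 1 h and at 6 h.

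PROPEP1 was the most abundant of these 3 precursors at 0 h and at 1 h after cutting. Its libraries read 4.20, 5.93 and 3.70 RPKM at 0 h, 28.1, 21.6 and 19.3 RPKM at 1 h and 57.8, 68.3 and 67.4 RPKM at 3 h. The groups did not overlap, and the log2 change was 2.10 (SE 0.26, limma adjusted p = 5.37e-06) at 1 h and 3.56 (SE 0.26, adjusted p = 1.47e-08) at 3 h. At 6 h it stood at 14.3, 15.8 and 10.4 RPKM (log2 change 1.37, adjusted p = 0.000309). The 12 h libraries at 5.17, 7.15 and 4.94 RPKM overlapped those of 0 h, and the 24 h libraries, at 8.24 and 2.81 RPKM, lay on either side of them. Its change at 24 h, not called over both libraries, was called without the lower one, 24 h replicate 2 (log2 change 0.74, limma adjusted p = 0.029).

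The genes on either side of the cluster are given for their level alone. AT5G64870, annotated as a membrane-associated Band 7 family protein, went from a mean of 6.88 ± 1.34 RPKM at 0 h to 49.3 ± 1.75 at 1 h and 7.64 RPKM at 3 h (SD, n = 3). On the nearer side AT5G64880 had 47.2 RPKM at 0 h and 22.3 RPKM at 1 h, and on the other side AT5G64910 stayed at or below a mean of 0.467 RPKM throughout.

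The receptors of the peptides had their highest level earlier than the precursors. PEPR1 (AT1G73080, chr1:27484240-27488204, plus strand) stood at 12.3, 13.7 and 11.9 RPKM at 0 h and at 149, 189 and 172 RPKM at 1 h, the highest mean of the 10 genes at any time. At 3 h its libraries were already back to 47.3, 53.6 and 48.5 RPKM. These groups were far apart, with a log2 change of 3.65 (SE 0.10, limma adjusted p = 5.6e-14) from 0 to 1 h and of -1.75 (SE 0.10, adjusted p = 5.23e-10) from 1 to 3 h. It went on to 21.0, 25.5 and 24.6 RPKM at 6 h and 13.6, 15.6 and 13.7 RPKM at 12 h, where it overlapped 0 h, and stood at 15.0 and 15.4 RPKM at 24 h. The small excess at 24 h (log2 change 0.26, SE 0.11, adjusted p = 0.0497) was not called after median centring (adjusted p = 0.234) or in 12 of the 17 fits that left out 1 library.

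PEPR2 (AT1G17750, chr1:6106323-6110120, plus strand) followed the same course at a lower level. Its libraries were at 2.85, 3.05 and 2.56 RPKM at 0 h, 37.5, 44.8 and 35.5 RPKM at 1 h and 11.7, 12.4 and 12.5 RPKM at 3 h. No library of 1 h or 3 h overlapped 0 h, and the log2 change was 3.39 (SE 0.13, limma adjusted p = 2.86e-12) at 1 h and 1.79 (SE 0.13, adjusted p = 5.27e-09) at 3 h. At 6 h it stood at 3.47, 3.89 and 3.71 RPKM, a log2 change of 0.30 that narrowly missed the threshold (adjusted p = 0.0517) and passed it with a pseudocount of 0.1 (0.0444), median centring (0.015) and quantile normalization (0.00246), and in 3 of the 17 fits that left out 1 library. It was the gene of the 10 that was not called at 6 h, although each 6 h library lay above each 0 h library. At 12 h, with 2.52, 3.69 and 2.19 RPKM, and at 24 h, with 2.99 and 2.67 RPKM, it overlapped 0 h. PEPR2 overlaps a pair of annotated long non-coding RNA genes on the opposite strand, AT1G05327 over 739 bases and AT1G05323 over 225 bases, which were not analysed here.

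**Figure D2:**
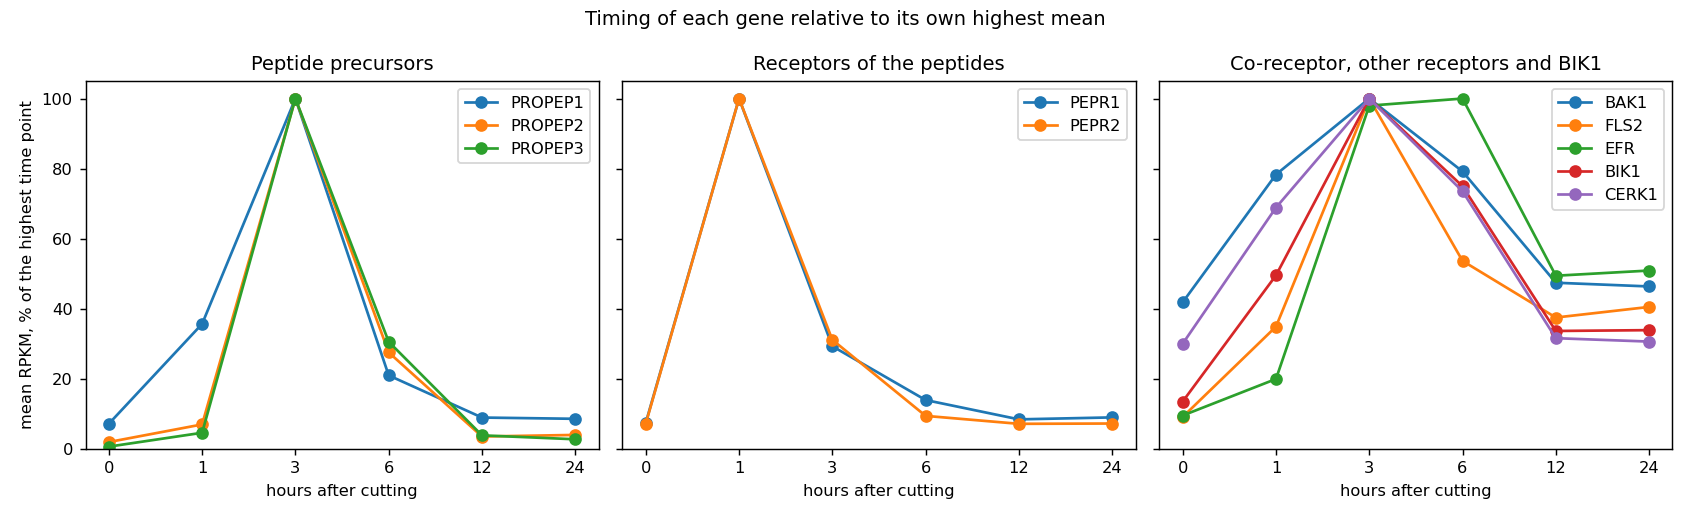
Mean level of each gene as a percentage of its own highest time point (vertical axis, % of the highest mean RPKM) against hours after cutting, evenly spaced, for the precursors, their receptors and the other 5 genes. At 3 h, where the precursors are at 100%, PEPR1 and PEPR2 are at 29.3% and 31.1% of their highest mean. At 24 h the precursors and their receptors lie between 2.72% and 8.96% while the other 5 genes lie between 30.6% and 50.9%. Of those 5, BAK1 and CERK1 are already at 41.8% and 30.0% at 0 h, against 46.4% and 30.6% at 24 h.

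BAK1 (AT4G33430, chr4:16086311-16090832, minus strand), which pairs with PEPR1, PEPR2, FLS2 and EFR and also with the brassinosteroid receptor, was the most abundant of the 10 genes at 0 h and changed least. Its libraries stood at 37.1, 35.8 and 35.1 RPKM at 0 h, 61.1, 73.9 and 67.2 RPKM at 1 h and 85.9, 89.2 and 83.1 RPKM at 3 h. The groups did not overlap, and the mean at 3 h was 2.39 times that at 0 h (log2 change 1.23, SE 0.07, limma adjusted p = 3.51e-10). It was at 67.6, 72.1 and 64.7 RPKM at 6 h, 40.6, 42.7 and 39.1 RPKM at 12 h and 39.8 and 40.0 RPKM at 24 h. The 12 h excess (log2 change 0.18, adjusted p = 0.0393) was lost after median centring (adjusted p = 0.191) and in 6 of the 17 fits that left out 1 library, and that of 24 h was not called (0.14, adjusted p = 0.123). BAK1 overlaps AT4G33420, a peroxidase family gene on the opposite strand, over 78 bases, and that gene went from 48.6 RPKM at 0 h to 129 RPKM at 1 h and 58.1 RPKM at 3 h. Whether reads were assigned by strand is not given in the sources used here, and the part of such overlaps in the values of BAK1, PEPR2, FLS2 and EFR was not tested.

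BIK1 (AT2G39660, chr2:16531527-16533986, plus strand), the kinase that the activated receptors phosphorylate, stood at 14.7, 16.7 and 19.5 RPKM at 0 h, 61.6, 60.3 and 64.8 RPKM at 1 h and 125, 122 and 130.3 RPKM at 3 h. Replicates lay close together and these groups did not overlap, with a log2 change of 1.82 (SE 0.08, limma adjusted p = 2.42e-11) at 1 h and 2.83 (SE 0.08, adjusted p = 2.1e-13) at 3 h. It stood at 93.2, 91.0 and 98.5 RPKM at 6 h, 39.8, 42.5 and 44.6 RPKM at 12 h and 43.5 and 41.6 RPKM at 24 h. At these last times BIK1 had the highest mean of the 10 genes and remained 1.28 and 1.29 log2 units above 0 h (adjusted p = 2.78e-09 and 1.34e-08).

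FLS2 (AT5G46330, chr5:18791575-18795908, plus strand) stood at 6.43, 4.24 and 3.99 RPKM at 0 h, 20.3, 18.0 and 17.9 RPKM at 1 h and 52.1, 57.0 and 52.1 RPKM at 3 h. The mean at 3 h was 11.0 times that at 0 h, with a log2 change of 3.24 (SE 0.13, limma adjusted p = 6.99e-12). FLS2 stayed above its start in every library, at 30.4, 27.1 and 29.0 RPKM at 6 h, 22.8, 18.0 and 19.6 RPKM at 12 h and 23.8 and 19.8 RPKM at 24 h. The log2 change was 1.86 at 12 h (adjusted p = 6.86e-09) and 1.97 at 24 h (SE 0.15, adjusted p = 1.87e-08). Its last 172 bases overlap RWA1 on the opposite strand, which went from 32.1 RPKM at 0 h to 20.7 RPKM at 1 h and 16.98 RPKM at 24 h.

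EFR (AT5G20480, chr5:6921509-6925901, plus strand) had the lowest mean of the 10 genes up to 3 h and was as high at 6 h as at 3 h. It stood at 0.668, 0.652 and 0.345 RPKM at 0 h, from 46, 17 and 9 reads, at 0.819, 1.31 and 1.36 RPKM at 1 h and at 5.51, 6.59 and 5.07 RPKM at 3 h. The 1 h libraries lay above those of 0 h by a narrow margin (log2 change 0.47, SE 0.15, limma adjusted p = 0.00822), and the 3 h libraries by a wide margin (2.11, SE 0.15, adjusted p = 3.4e-09). The 6 h libraries, at 6.94, 5.46 and 5.13 RPKM, overlapped those of 3 h and the difference was not called (log2 0.02, SE 0.15, adjusted p = 0.93). EFR was at 2.91, 3.14 and 2.61 RPKM at 12 h and at 2.87 and 3.08 RPKM at 24 h, still 1.33 and 1.36 log2 units above 0 h (adjusted p = 1.04e-06 and 3.33e-06). The long non-coding RNA gene AT5G03135, not analysed here, overlaps its start on the opposite strand.

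CERK1 (AT3G21630, chr3:7615357-7618671, minus strand) stood at 21.2, 20.6 and 20.9 RPKM at 0 h, 46.9, 52.5 and 44.6 RPKM at 1 h and 67.7, 75.7 and 65.6 RPKM at 3 h. The groups did not overlap, and the log2 change was 1.16 (SE 0.10, limma adjusted p = 6.91e-08) at 1 h and 1.69 (SE 0.10, adjusted p = 6.89e-10) at 3 h. From 52.3, 58.4 and 42.9 RPKM at 6 h it came back to 21.9, 22.6 and 21.5 RPKM at 12 h and 23.3 and 19.4 RPKM at 24 h, with changes of 0.07 and 0.02 against 0 h that were not called (adjusted p = 0.568 and 0.883).

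Between neighbouring times, 8 of the 10 genes rose from 1 to 3 h, where 38% of all tested genes did, and 2 fell, PEPR1 and PEPR2, where 22.2% did. From 3 to 6 h, 9 fell (14.4% of tested genes), EFR being the exception, and from 6 to 12 h all 10 fell (16.5%). The last of these falls was slight for PEPR2 (log2 change -0.32, limma adjusted p = 0.0481), whose libraries overlapped and whose call was lost in 14 of the 17 fits that left out 1 library, with adjusted p up to 0.219, and with no filter on low values (0.0588). From 12 to 24 h limma called 0 of the 10 (10.3% of tested genes higher, 8.11% lower), and none had an unadjusted p under 0.05. Of the 10 genes, 7 had their highest mean at 3 h, which was the highest time for 11.6% of all tested genes.

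Because RPKM is scaled per length, levels can be ordered between genes, as far as the lengths used hold. The lengths that gave whole reads were 516 bases for PROPEP1 and 3321 for EFR, against 691 and 4306 exon bases in the annotation used here. The part of such differences in the order was not tested. At 0 h the order was BAK1, CERK1, BIK1, PEPR1, FLS2, PROPEP1, PEPR2, PROPEP2, PROPEP3 and EFR, with FLS2 and PROPEP1 overlapping in their libraries, as did the last 3 in turn. At 1 h PEPR1 was at the top, clear of BAK1, which overlapped BIK1. At 3 h PROPEP3 stood at the top, its libraries above those of BIK1, while FLS2, PEPR1 and PROPEP2 overlapped at means of 53.8, 49.8 and 49.7 RPKM. From 6 h on BIK1 was at the top and BAK1 next, with overlap between them at 12 h. The lowest place passed from EFR to PEPR2 at 6 h and to PROPEP2 at 12 and 24 h, with overlap between PROPEP2 and PEPR2 at 24 h.

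Ratios within a library were taken of RPKM + 1, so that they depend little on its scaling at high levels and more at the low levels of PROPEP2, PROPEP3 and EFR. In all, 6 pairs were compared between the 3 libraries of 0 h and the 14 later ones with a two-sided exact permutation test over 680 assignments, whose smallest possible p is 0.00147. The test exchanges single libraries, although the later ones pool several times whose ratios can differ. Its p therefore does not measure the spread between replicates of the same time. The balance of BAK1 and BIK1 turned over. BAK1 was on average 2.16 times as abundant as BIK1 at 0 h, 0.686 times at 3 h and 0.937 times at 24 h, and the mean log2 ratio of the later libraries differed from that of 0 h by -1.27 (exact p = 0.00147, adjusted over the 6 pairs 0.00441). Each of the 14 later libraries lay below each 0 h library. PROPEP2 and PROPEP3 were about equal at 0 h (mean ratio 1.17) and PROPEP3 was higher in every later library, with ratios of PROPEP2 to PROPEP3 between 0.205 and 0.545 (difference -1.34, exact p = 0.00147, adjusted 0.00441). PROPEP1 over PROPEP3 went from a mean log2 ratio of 1.57 at 0 h and 1.68 at 1 h to -1.24 at 3 h, and the pooled difference of -1.82 did not pass the adjusted threshold (exact p = 0.0426, adjusted 0.0512), although it did with a pseudocount of 0.1 and in 4 of the 17 comparisons that left out 1 library. For PROPEP1 over PROPEP2 the difference was -0.48 (exact p = 0.46, adjusted 0.46).

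PEPR1 over PEPR2 ranged from 3.87 to 6.61 in the 17 libraries, through a change of more than 10 times in both genes. Without a pseudocount the ratio was 6.05 to 6.61 at 6 h, above every library of 0, 1 and 3 h, which reached at most 4.84. That difference by time was not tested. The later libraries had a log2 ratio 0.28 above 0 h (exact p = 0.0294, adjusted 0.0441). FLS2 over EFR was 0.77 higher later (exact p = 0.0176, adjusted 0.0353). Both of these rest on the pseudocount of 1, which weighs on the low levels of PEPR2 and EFR: with 0.1 the differences were 0.17 (adjusted p = 0.39 in the exact permutation test) and 0.077 (adjusted p = 0.838). The first was also lost without any 1 of the 0 h libraries and in 3 further comparisons that left out 1 library, and the second without 0 h replicate 2 or 3.

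**Figure D3:**
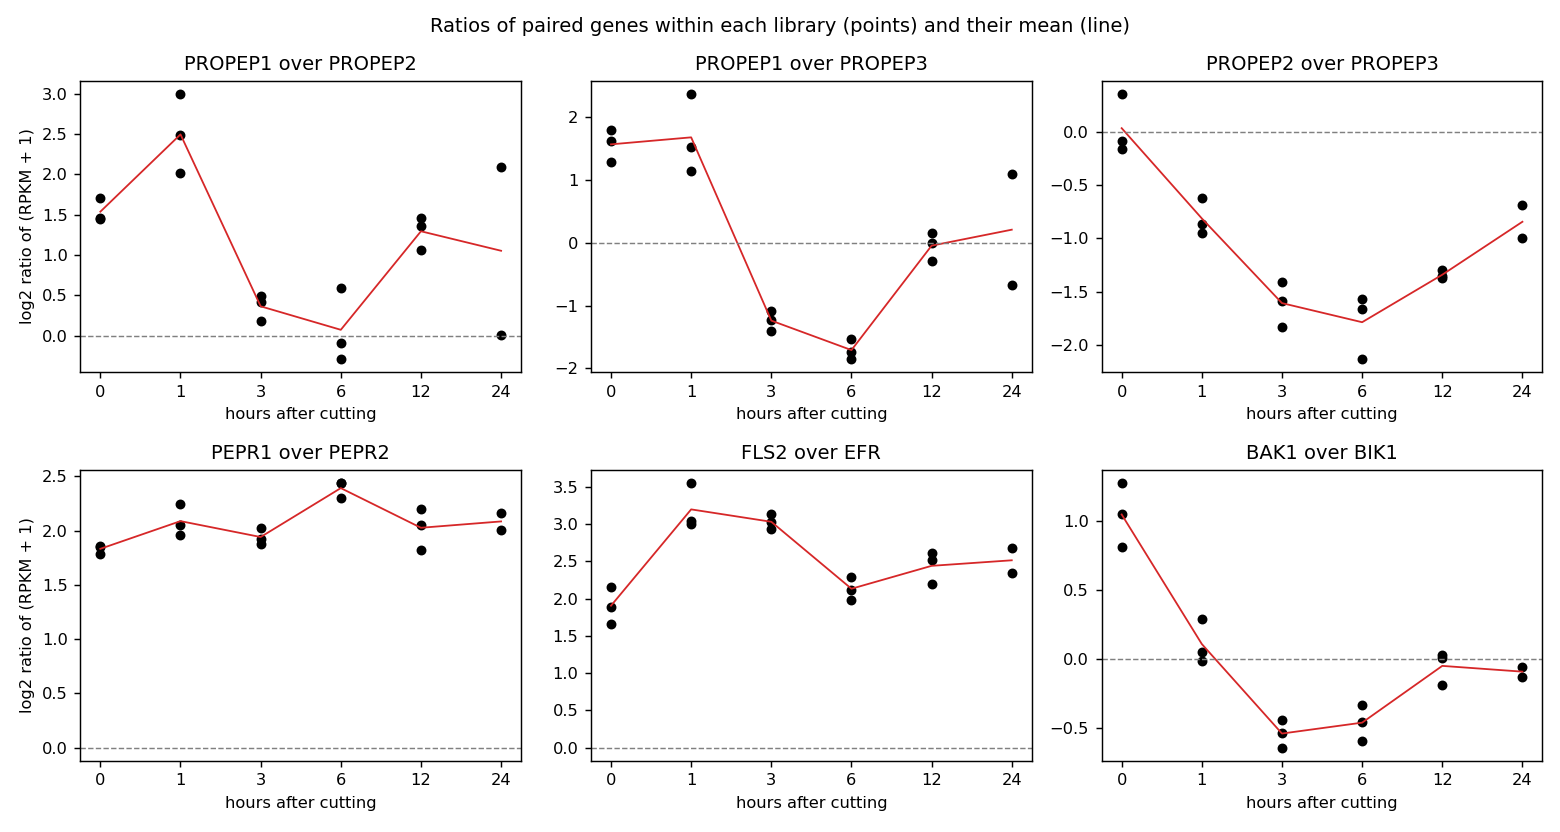
Log2 ratio of (RPKM + 1) for 6 pairs of genes in each library (points) and the group mean (line) against hours after cutting, evenly spaced, with a dashed line at equal level and a separate vertical scale in each panel. BAK1 over BIK1 and PROPEP2 over PROPEP3 lie lower in every later library than in any 0 h library, while PEPR1 over PEPR2 stays between 1.78 and 2.44.

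The other genes of the pathway were taken from 8 lists of 93 genes, of which 86 passed the filter on low values (1 RPKM or more in 2 or more libraries). Of the 86, the numbers called higher than at 0 h were 51, 61, 54, 42 and 38 in time order from 1 to 24 h, against the shares of all tested genes given above. The numbers called lower were 13 (7 after median centring), 14, 19, 18 and 12, against 54.7%, 39.3%, 37.1%, 27.8% and 23.2% of all tested genes. Their median log2 change was 0.81 at 1 h and 0.89 at 3 h. The members that passed the filter are not all members: PROPEP5 and AT5G09976 among the peptides, MC8, RLP23, RLP30, PDF1.2a and PR1 did not. Others, MC2 and AT1G26380 among them, passed only through times after 0 h. Such genes could hardly be called lower than at 0 h, which limits the counts of lower calls.

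Among 10 other peptide precursors, 7 were higher and 2 lower at 1 h, against 18.2% and 54.7% of all tested genes. At 3 h, 6 were higher and 2 lower, against 27.6% and 39.3%. PROPEP4, another member of the danger peptide family, went from a mean of 1.57 RPKM at 0 h to 81.1 at 1 h (log2 change 4.98, SE 0.23, limma adjusted p = 3.15e-11) and stood at 7.63 RPKM at 3 h, with its highest mean at 1 h as for PEPR1 and PEPR2. PROPEP6 went the other way, from 8.82 to 4.78 RPKM at 1 h (log2 change -0.76, adjusted p = 0.000164), and was higher at 24 h, at 13.3 RPKM (0.55, adjusted p = 0.00659). RALF23, whose peptide dampens immune signalling through another receptor kinase, fell from 71.5 to 29.3 RPKM at 1 h (-1.24, adjusted p = 1.28e-06). The count of higher calls at 1 h was 4 without 1 h replicate 1.

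Metacaspases are the proteases that include the one releasing a danger peptide from its precursor. At 1 h, 3 of 8 tested were higher and 1 lower (6 and 0 after median centring), against 18.2% and 54.7% of all tested genes. At 3 h, 5 were higher and 2 lower, against 27.6% and 39.3%. MC2, at 0 RPKM in every 0 h library, and MC6, at most 0.0436 RPKM there, passed the filter only through later times. They could hardly be called lower, and MC2 is among those higher at 3 h, at a mean of 1.36 RPKM. The lower call at 1 h was lost in 9 of the 17 fits that left out 1 library. MC7 made the largest change, from 14.9 to 355 RPKM at 1 h (log2 change 4.49, SE 0.10, limma adjusted p = 1.65e-14), although MC4 to MC7 are neighbours with similar sequences whose reads the counting could have split. MC4, which cleaves PROPEP1, stood at 166 RPKM at 0 h and 181 RPKM at 1 h (log2 change 0.13, adjusted p = 0.105) and was lower at 3 h, at 135 RPKM (-0.29, adjusted p = 0.00121).

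Of 8 SERK and BIR genes, relatives and partners of BAK1, 4 were higher and 3 lower both at 1 h and at 3 h, beside 18.2% higher and 54.7% lower at 1 h and 27.6% and 39.3% at 3 h of all tested genes. SERK4, the closest relative of BAK1 in immune signalling, rose from 14.2 to 54.3 RPKM at 1 h (log2 change 1.87, SE 0.07, limma adjusted p = 6.11e-12). SOBIR1, the adaptor kinase of receptor proteins that lack a kinase domain, rose from 27.6 to 89.6 RPKM at 1 h and stood at 104 RPKM at 3 h. SERK1, known from embryo and anther development, fell from 15.5 to 5.74 RPKM at 1 h (-1.30, adjusted p = 9.71e-07).

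At 1 h, 9 of 18 other surface receptors were higher and 4 lower (1 lower after median centring or quantile normalization), against 18.2% and 54.7% of all tested genes. At 3 h, 11 were higher and 6 lower, against 27.6% and 39.3%. LYK5 and LYK4, the LysM kinases that work with CERK1 in chitin perception, rose at 1 h from 3.69 to 50.04 RPKM (log2 change 3.42, limma adjusted p = 9.62e-11) and from 5.15 to 24.6 RPKM (2.06, adjusted p = 1.47e-09). At 3 h the largest changes were those of AT1G74360, annotated as a leucine-rich repeat kinase, from 0.842 to 50.8 RPKM (4.82, adjusted p = 7.15e-15), and AT4G08850, also a leucine-rich repeat receptor-like kinase, from 21.4 to 281 RPKM (3.67, adjusted p = 4.4e-13). WAK2, a wall-associated kinase, was lower at 12 h, at 0.189 against 1.74 RPKM (-1.21, adjusted p = 1.09e-05).

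Downstream of the receptors, 10 of 14 receptor-like cytoplasmic kinases and partners were higher and 1 lower at 1 h, against 18.2% and 54.7% of all tested genes. At 3 h, 12 were higher and 1 lower, against 27.6% and 39.3%. RIPK rose from 15.6 to 208 RPKM at 1 h (log2 change 3.64, SE 0.11, limma adjusted p = 3.22e-13). RBOHD, the oxidase behind the burst of reactive oxygen and a substrate of BIK1, rose from 26.1 to 178 RPKM at 1 h (2.72, adjusted p = 2.3e-13). Of 9 genes for turnover and attenuation, 4 were higher and 1 lower at 1 h, and 6 and 0 at 3 h (1 lower with quantile normalization). The ubiquitin ligases PUB22, PUB23 and PUB24, which act together to dampen pattern-triggered responses, rose at 1 h from 1.70 to 26.3, from 6.81 to 136 and from 3.86 to 48.3 RPKM, with log2 changes of 3.35, 4.25 and 3.32.

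MAP kinase cascades carry the signal on. Of 11 genes tested, 8 were higher and 1 lower at 1 h (0 lower after median centring), against 18.2% and 54.7% of all tested genes. At 3 h, 9 were higher and 0 lower, against 27.6% and 39.3%. MPK3 rose from 52.4 to 252 RPKM at 1 h (log2 change 2.25, SE 0.13, limma adjusted p = 4.58e-10) and was below its start at 12 h, at 26.2 RPKM (-0.99, adjusted p = 6.68e-06). Of 8 tested marker genes of early pattern-triggered immunity, 6 were higher at 1 h and 8 at 3 h, and 0 were lower at either time, against the same shares. The absence of lower calls is partly set by the filter. AT1G26380, at a mean of 0.169 RPKM at 0 h, passed it only through later times and could hardly be called lower. WRKY33 rose from 24.9 to 327 RPKM at 1 h (3.71, adjusted p = 1.43e-10) and WRKY29 from 0.907 to 69.5 RPKM at 3 h (5.21, adjusted p = 1.05e-13), both being transcription factors that bind W-boxes. NHL10 rose from 1.08 to 71.9 RPKM at 3 h (5.18, adjusted p = 1.84e-10). AT1G26380, annotated as a berberine family oxidase with an FAD-binding domain, rose from 0.169 RPKM at 0 h to 80.0 RPKM at 6 h (6.05, adjusted p = 3.16e-12).

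**Figure D4:**
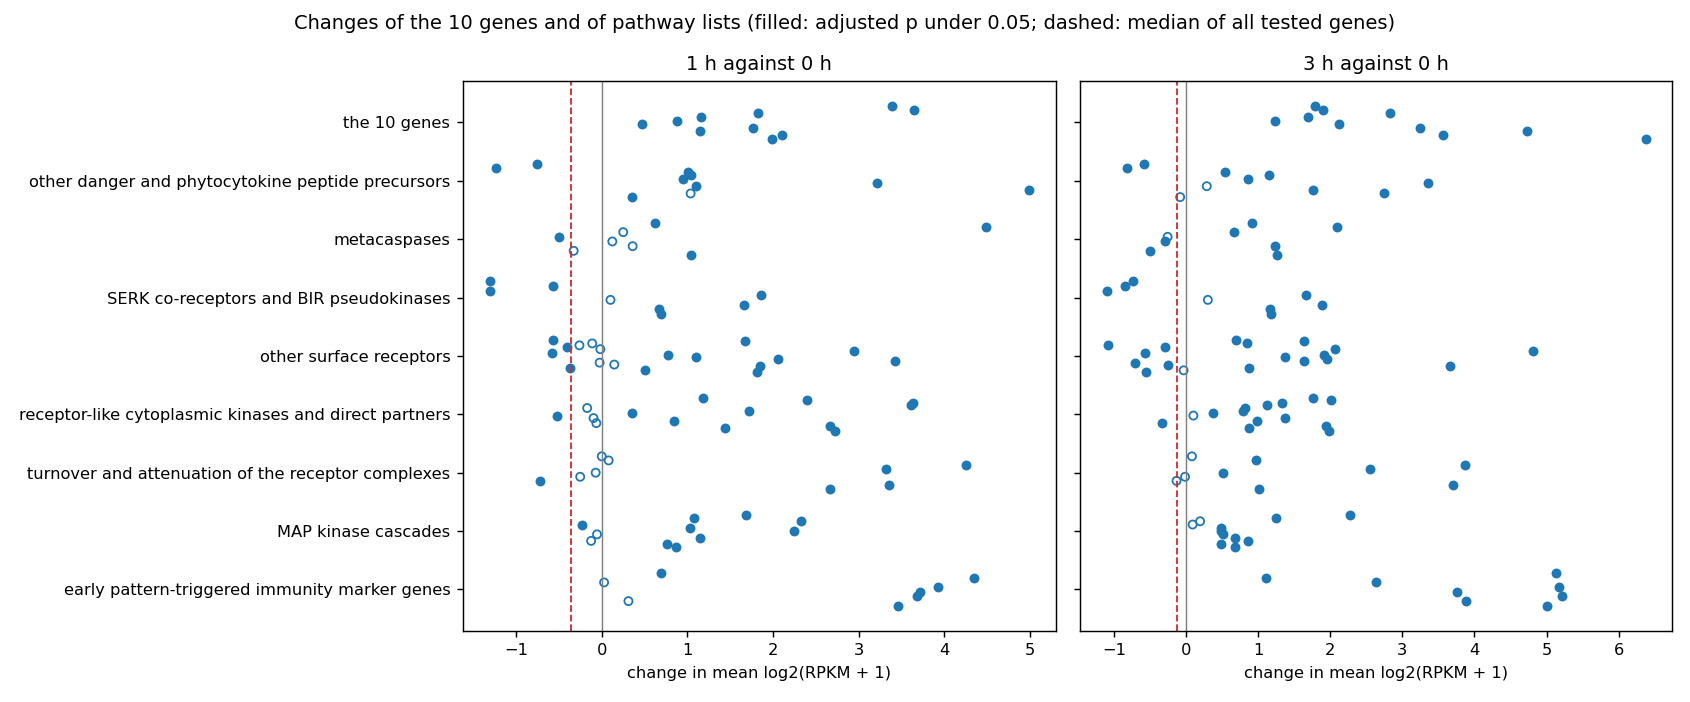
Change in mean log2(RPKM + 1) against 0 h (horizontal axis) at 1 h and at 3 h for the 10 genes and for the tested genes of the 8 pathway lists, 1 point per gene; filled points passed an adjusted p of 0.05, and the dashed line is the median of all tested genes, at -0.36 and -0.12. All 10 genes lie to the right of 0 at both times, whereas 7 of the 8 lists have points on either side at 1 h.

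Across the 17 libraries, which share time points and depths, the likeness of log2(RPKM + 1) profiles was highest between PEPR1 and PEPR2 (Pearson r = 0.988) and between BAK1 and CERK1 (0.988) among all pairs of the 10 genes, and lowest between PEPR2 and EFR (-0.11). Over all tested genes the profile most like that of PROPEP2 was that of its neighbour PROPEP3 (r = 0.976). The profile most like that of PEPR1 was that of NPR3, a salicylic acid receptor (0.994), with means of 13.6, 224 and 59.2 RPKM at 0, 1 and 3 h. For PROPEP1 they were TIR (0.981), AT1G78410, a VQ motif protein (0.972), and CRK19 (0.971). For PROPEP3 it was AT5G67340, an ARM repeat protein (0.991), for PEPR2 AT1G32970, a subtilisin-like protease (0.990), and for BAK1 and for CERK1 AT3G26910 (0.993 and 0.989). For FLS2 it was AT4G08850 (0.980), for EFR the aspartate kinase gene AK-LYS1 (0.986) and for BIK1 AT1G74360 (0.987). These are descriptions over libraries that share the same 6 times, given without a test.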

How the data were processed

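Polyadenylated RNA of 17 libraries was prepared with a stranded kit, per the labels' protocols, and the build is TAIR10, per the submitters' processing notes; the aligner, the counter and the use of strand were not found in those sources. The deposited values are RPKM per gene, normalized by the authors for transcript length and mapped reads. Mapped reads were recovered from the steps of low RPKM values, so floors and read numbers cover counting error only.

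Genes reaching 1 RPKM in 2 or more libraries (19656 of 28642, 68.6%) were fitted as log2(RPKM + 1) with limma 3.58.1 in R 4.3.3 (trend, robust), time as a factor of 6 levels, with Benjamini-Hochberg adjustment over all tested genes and calls at 0.05. A fold on this scale understates the change of low genes. All 10 genes passed the filter. Pair ratios were tested by exact permutation, two-sided. Alternatives were a pseudocount of 0.1, no filter, median centring, quantile normalization, a replicate block and leaving out each of the 17 libraries.

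The 10 genes and the 8 pathway lists were chosen with earlier results of these data known. From each list up to 3 called genes with the largest change in a comparison with 0 h are named, and for likeness the gene with the highest r, or 3 such genes for PROPEP1. Values of a named gene at other times, and MC4 at 1 h and 3 h, were chosen after they were seen. Gene names, positions and sequences are from the RefSeq annotation of TAIR10.1, whose 5 nuclear chromosomes are used; genes without a symbol there are given by locus. Nothing in the labels says that replicates came from separate plants, so p-values measure the spread between these libraries, which may be technical.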

Additional observations from a re-analysis of the deposited data

How the results depend on the processing

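The counts of the 10 genes called in each comparison stayed within 1.5 times of those reported under every alternative and without any 1 library, but not unmoved: those higher than at 0 h were 9 to 10 at 6 h, 4 to 6 at 12 h and 4 to 5 at 24 h, and 9 to 10 were lower at 12 h than at 6 h. Counts of the pathway lists that moved were those of few genes. With median centring 6 metacaspases were higher at 1 h and 0 lower, 1 other surface receptor, 0 MAP kinase genes and 7 pathway genes in all (13 as deposited) were lower at 1 h. With quantile normalization 1 other surface receptor was lower at 1 h and 1 turnover gene at 3 h, and with a pseudocount of 0.1, 0 metacaspases were lower at 1 h. Leaving out 1 library at a time gave 4 to 7 higher peptide precursors at 1 h, 0 to 1 lower metacaspases at 1 h and 1 to 2 at 3 h, and 1 to 2 lower receptor-like cytoplasmic kinases at 1 h; the cause was not tested. With a pseudocount of 0.1 the difference in log ratio was -2.60 for PROPEP1 over PROPEP3 (now past the threshold) and 0.17 for PEPR1 over PEPR2 and 0.077 for FLS2 over EFR (no longer past it). The ranges without 1 library were -2.02 to -1.70, 0.25 to 0.30 and 0.65 to 0.89.

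The differences that changed sign were not called as reported, lay near 0 and were mostly between 12 and 24 h. For 24 h against 0 h, median centring gave -0.011 for PROPEP1, -0.11 for PEPR2 and -0.090 for CERK1, and quantile normalization -0.037 for PROPEP1, -0.17 for PEPR2 and -0.047 for CERK1. For 24 h against 12 h, median centring gave -0.012 for PEPR2, -0.0097 for EFR and -0.032 for BIK1, and quantile normalization -0.046 for PEPR2 and -0.049 for EFR. For EFR at 6 h against 3 h, the 2 scalings gave -0.0061 and -0.0042. Without 1 library, 24 h against 0 h ranged from -0.54 to 0.74 for PROPEP1, -0.056 to 0.065 for PEPR2 and -0.11 to 0.15 for CERK1, and 12 h against 0 h from -0.19 to 0.090 for PEPR2. For 24 h against 12 h the ranges were -0.81 to 0.47 for PROPEP1, -0.33 to 0.47 for PROPEP2, -0.085 to 0.19 for PEPR2, -0.061 to 0.0023 for BAK1, -0.019 to 0.23 for FLS2, -0.019 to 0.081 for EFR, -0.031 to 0.049 for BIK1 and -0.18 to 0.079 for CERK1. EFR at 6 h against 3 h ranged from -0.089 to 0.11.

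Whether libraries with the same replicate number are paired across times could not be decided. Deviations from the group means correlated by -0.17 to 0.34 (median 0.07) between the 40 pairs of libraries with the same number. Between the 80 with different numbers they correlated by -0.31 to 0.20 (median -0.05), a lower median with an overlapping range. A block for the replicate number raised the genes called at 1 h against 0 h from 14328 to 14551. With the replicate number as a block PEPR2 at 6 h (limma adjusted p = 0.033) and PEPR1 at 12 h (0.0459) were also called higher than at 0 h, 2 metacaspases were lower at 1 h, and 24 h against 0 h was -0.038 for PEPR2 and -0.024 for CERK1, and 24 h against 12 h -0.16 for PROPEP2, -0.011 for PEPR2 and -0.013 for EFR. Depth limits PROPEP2, PROPEP3 and EFR at 0 h most, where a library held as few as 2 reads of PROPEP2 or PROPEP3 and 9 of EFR.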
